A study of Mus musculus with 28 samples.

Results

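The B-lineage transcription factors and coactivators Pax5, Ebf1, Tcf3, Ikzf1, Ikzf3, Foxo1, Bach2, Lef1, Pou2af1 and Irf4 were followed while Pre-B cells were converted to macrophages. They were chosen by name, with no threshold on a measured value, and make up 10 of the 55450 genes in the expression table and 10 of the 16415 genes that were tested, those with a mean of at least 0.1 TPM (a transcript abundance corrected for gene length and library total). The cells were C10 (CEBPalpha-ER), a HAFTL derived mouse Pre-B line that carries a transgene of rat C/EBPα fused to the hormone-binding domain of the estrogen receptor (C/EBPαER). All groups carried this transgene. The groups were 0h, before induction, and cells taken 1h, 12h or 48h after the addition of 100 nM β-estradiol, 10 nM IL-3 and CSF-1. RNA-seq had 3 biological replicates per time point, and Promoter Capture Hi-C (PCHi-C) gave 1 merged list of promoter contacts per time point. C10 is a single clonal line, and an induced line without C/EBPαER was not analysed here, so β-estradiol, the cytokines and C/EBPα cannot be told apart. The labels do not say whether replicates were grown as separate cultures, so p-values measure the spread between these libraries.

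B cell identity is held by a network of transcription factors. The E protein E2A (Tcf3) and Ebf1 open the B-lineage program and switch on Pax5, the B cell commitment factor, and Pax5 and Ebf1 keep each other and many B-lineage genes active. Ikaros (Ikzf1) and Aiolos (Ikzf3) drive Pre-B cell maturation, Foxo1 activates the recombinase and Il7r genes, and Bach2 represses myeloid and plasma cell genes. Lef1 is expressed in early B cell precursors, Pou2af1 (OCA-B) is a coactivator of octamer-binding proteins, and Irf4 acts in light chain rearrangement and later in plasma cells. C/EBPα is a myeloid factor that is silent in normal B cells.

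Expression is given as scaled TPM, the deposited TPM divided by a median-of-ratios size factor. This was needed because 2 ribosomal RNA records took 70.3% to 82.9% of all TPM and left a different remainder for the other genes at each time point. TPM account for gene length, so levels of different genes can be compared. They keep no read depth, and how well low values were measured was not assessed. The labelled cell type was checked against marker genes. The summed scaled TPM of 10 pre-B cell markers lay between 361 and 383 at 0h and between 56.6 and 65.2 at 48h, and that of 10 macrophage markers between 4.37 and 5.55 at 0h and between 902 and 1110 at 48h. Mmp12 alone had a mean of 709 scaled TPM at 48h and Lyz2 of 156, while Mrc1 had 0.908. Of 9 macrophage markers tested, 8 were called higher at 48h and 0 lower, beside 24.5% and 22.0% of all genes. At 48h the macrophage marker Adgre1 (F4/80) was still near 0, at a mean of 0.129 scaled TPM. Of the 10 pre-B cell markers, 9 were called lower at 48h and 0 higher, and Blnk was not called. Rag1 was listed at 0 at 48h, while Ighm went from a mean of 3.71 at 12h to 17.5 at 48h. From 12h to 48h 3 of the 10 were called higher and 5 lower, beside 10.5% and 11.9% of all genes. The 9 granulocyte markers summed to at most 0.587 at 0h, were highest at 12h (9.04 to 12.6) and stood at 2.47 to 6.15 at 48h, with 4 of 9 above 0. The 9 T cell markers summed to 1.89 to 3.53 at 0h and 0.478 to 1.09 at 48h. Most of this sum was Cd5, with means of 2.57 scaled TPM at 0h and 0.614 at 48h, while Cd3e, Cd3g and Cd4 were listed at 0. Natural killer cell and erythroid markers stayed at or below 0.153 and 0.671 in every library. The 5 plasma cell markers summed to 4.02 to 4.33 at 0h, 17.4 to 21.3 at 12h and 11.5 to 16.1 at 48h. Most of this sum came from Xbp1 and Sdc1, with means of 13.2 and 6.31 scaled TPM at 12h. At that time Prdm1 had a mean of 0.124 and Jchain of 0.0492, and Tnfrsf17 was listed at 0. Replicate 3 had the lowest share of ribosomal RNA at each time point (70.3% to 76.9%). Without the 4 libraries of replicate 3, a fit chosen after the data were seen, 7, 9 and 9 of the 10 factors were called lower at 1h, 12h and 48h. Their part in the results below was not tested, and in bulk RNA fewer cells of a type and less RNA per cell cannot be told apart.

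The promoters of the factors are shown first, since 9 of the 10 genes fell in the course of the conversion. They run from 250 bases before to 50 bases after the RefSeq start (GRCm38.p6), and a promoter was given for 9 of the 10 genes (14 promoters, Ikzf3 excepted). In all, 9 motifs were searched on both strands: TTGCNNAA (C/EBP), an EBF1 motif (TCCC and GGGA with 2 bases between them), CAGGTG (E2A), TGGGAA (Ikaros), TGTTTAC (FOXO), TCAAAG (LEF1), ATGCAAAT (octamer), GAGGAAGT (PU.1) and an IRF motif (GAAA repeated after 2 bases). Capitals mark the matches. Shown are the promoters of Pax5 and Irf4, which of the genes with at least 10 contacts at 0h had the smallest share of that number at 1h and which held no match, and those of Ebf1, Foxo1, Lef1 and Pou2af1, which held matches to motifs of other factors discussed here. Each lies in the fragment captured for PCHi-C.
Pax5, chr4:44710645-44710944, minus strand: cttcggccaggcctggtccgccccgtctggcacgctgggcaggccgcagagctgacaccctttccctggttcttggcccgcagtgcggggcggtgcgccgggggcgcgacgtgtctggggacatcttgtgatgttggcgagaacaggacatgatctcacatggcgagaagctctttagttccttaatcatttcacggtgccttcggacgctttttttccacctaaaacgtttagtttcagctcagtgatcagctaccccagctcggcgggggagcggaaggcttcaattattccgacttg
Ebf1, chr11:44617850-44618149, plus strand: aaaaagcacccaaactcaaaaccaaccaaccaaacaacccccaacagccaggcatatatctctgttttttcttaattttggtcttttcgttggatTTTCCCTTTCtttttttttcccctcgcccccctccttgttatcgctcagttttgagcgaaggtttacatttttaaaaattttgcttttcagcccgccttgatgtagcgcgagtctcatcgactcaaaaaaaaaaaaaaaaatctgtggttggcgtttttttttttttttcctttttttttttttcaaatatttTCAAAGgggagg
Foxo1, chr3:52268087-52268386, plus strand: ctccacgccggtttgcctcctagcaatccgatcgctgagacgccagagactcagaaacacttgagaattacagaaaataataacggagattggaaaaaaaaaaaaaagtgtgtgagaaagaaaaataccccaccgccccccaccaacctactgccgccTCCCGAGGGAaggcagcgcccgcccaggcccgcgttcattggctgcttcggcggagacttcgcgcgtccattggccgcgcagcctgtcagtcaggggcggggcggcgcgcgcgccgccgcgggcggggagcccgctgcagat
Lef1, chr3:131110073-131110372, plus strand: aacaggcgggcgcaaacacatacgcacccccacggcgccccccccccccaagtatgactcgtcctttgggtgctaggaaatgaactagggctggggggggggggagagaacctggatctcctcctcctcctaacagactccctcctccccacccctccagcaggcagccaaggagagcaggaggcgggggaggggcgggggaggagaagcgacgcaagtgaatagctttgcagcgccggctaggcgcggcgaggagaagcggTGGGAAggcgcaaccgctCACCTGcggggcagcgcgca
Pou2af1, chr9:51213440-51213739, plus strand: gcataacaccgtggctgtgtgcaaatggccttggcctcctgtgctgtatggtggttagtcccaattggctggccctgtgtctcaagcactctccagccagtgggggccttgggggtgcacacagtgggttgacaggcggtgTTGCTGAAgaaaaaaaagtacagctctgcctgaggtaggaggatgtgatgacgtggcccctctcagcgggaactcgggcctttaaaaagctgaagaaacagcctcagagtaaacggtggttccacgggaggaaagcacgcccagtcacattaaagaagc
Irf4, chr13:30748983-30749282, plus strand: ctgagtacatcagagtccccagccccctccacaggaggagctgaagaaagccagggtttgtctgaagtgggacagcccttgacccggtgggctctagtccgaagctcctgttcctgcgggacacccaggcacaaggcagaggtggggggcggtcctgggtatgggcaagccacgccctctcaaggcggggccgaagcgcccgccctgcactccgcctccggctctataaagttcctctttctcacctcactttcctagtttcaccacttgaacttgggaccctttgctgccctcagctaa
The Foxo1 promoter held the palindrome TCCCGAGGGA, an EBF1 motif, at position -92 from the start, and 0.904% of all 32851 promoters hold this motif. In Pou2af1 a C/EBP motif (TTGCTGAA) lay at position -109, where the share of all promoters is 10.8%. Lef1 held TGGGAA and CAGGTG 13 and 31 bases after this start (25.6% and 20.2% of all promoters), and Ebf1 an IRF motif at position -155 and TCAAAG 39 bases after its start (3.44% and 16.0%). No motif of the 9 was found in the promoters of Pax5, Tcf3, Ikzf1 and Irf4. The FOXO, octamer and PU.1 motifs (3.65%, 1.74% and 3.20% of all promoters) were found in none of the 14 member promoters. Bach2, whose promoter is not shown, had TCAAAG at position -93.

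Of the 10 factors, 9 fell by 48h and 8 of them had fallen by 1h. At 1h, 8 of 10 were called lower and 0 higher with limma at an adjusted p under 0.05, where 4.92% of all genes tested were called lower and 5.42% higher. At 12h and at 48h, 9 of 10 were called lower and 0 higher, beside 14.5% and 22.0% of all genes lower and 16.0% and 24.5% higher. With a log2 fold change beyond 1 added, 7, 8 and 9 were lower at 1h, 12h and 48h and none was higher (2.83%, 9.39% and 17.6% of all genes lower, 4.08%, 12.0% and 19.6% higher). The median log2 fold change of the 10 was -1.43, -2.38 and -2.63, against 0.02, 0.07 and 0.07 for all genes tested. Between consecutive time points, 7 fell and 1 rose from 1h to 12h (8.77% and 11.3% of all genes lower and higher), and 3 fell and 2 rose from 12h to 48h (11.9% and 10.5%). Beyond a log2 fold change of 1, 5 fell and 0 rose in the first of these steps (5.62% and 7.74% of all genes), and 0 fell and 1, Foxo1, rose in the other (7.72% and 7.56%). In 9 of 10 genes the 3 libraries at 1h did not overlap those at 0h, and the same number did not overlap at 12h and at 48h (16.2%, 21.3% and 23.9% of all genes lower without overlap, 16.3%, 23.7% and 27.2% higher). From 1h to 12h 9 genes did not overlap (19.3% of all genes lower, 20.3% higher), and from 12h to 48h 5 (17.3% each way).

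The scaling between libraries changed these counts. In the TPM as deposited the median of all genes itself moved by 0.59, 0.34 and -0.18 (log2) at 1h, 12h and 48h against 0h. On that scale 1.41% of all genes were called lower and 24.1% higher at 1h, 7.82% and 22.3% at 12h, and 27.2% and 15.9% at 48h, and 5, 8 and 9 of the 10 factors were called lower with 0 higher. From 1h to 12h and from 12h to 48h the deposited TPM gave 7 and 4 of the factors lower and 0 higher (15.0% and 31.7% of all genes lower, 6.98% and 4.10% higher), against medians of all genes of -0.29 and -0.62. The direction relative to 0h was the same on both scales for the 9 factors other than Irf4 at each time point.

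**Figure D1:**
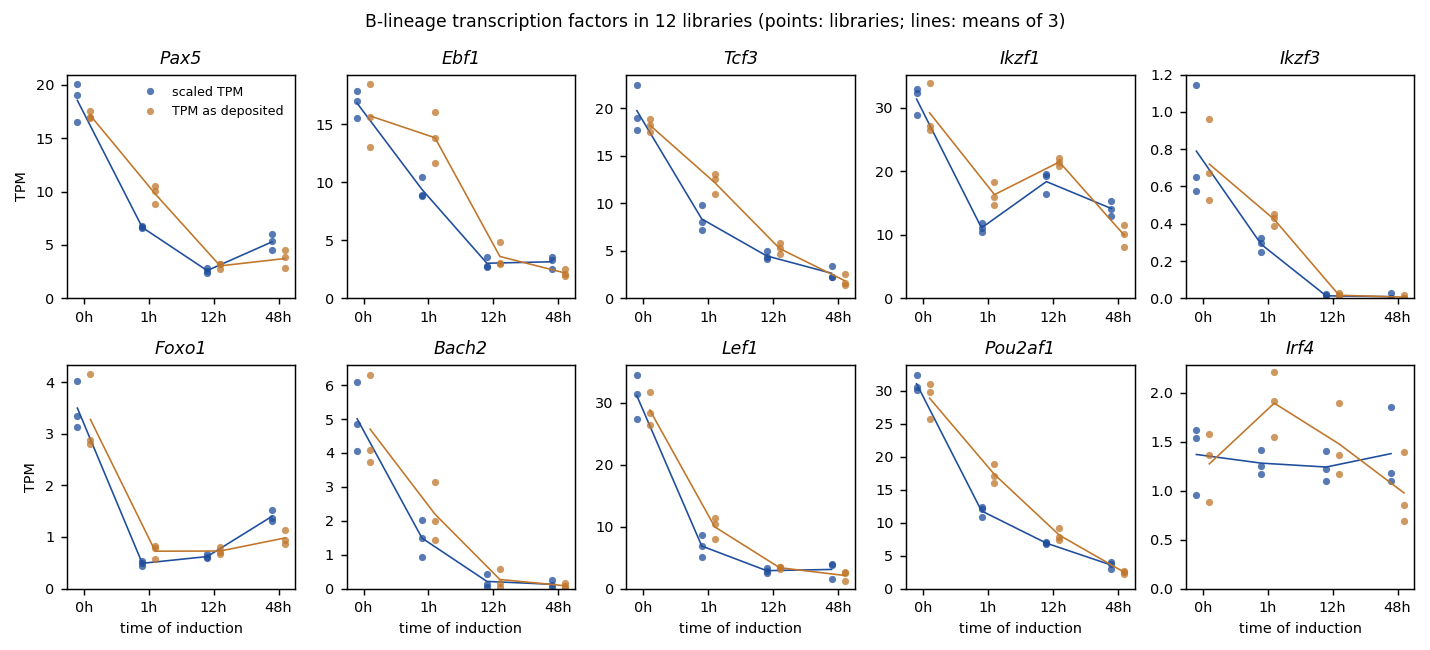
TPM of the 10 factors at each time point, scaled (blue) and as deposited (orange), with 1 point per library and lines through the means of 3 libraries. Each vertical axis starts at 0 and has its own range. Pax5, Ebf1, Tcf3, Lef1 and Pou2af1 start between 16.8 and 31.1 mean scaled TPM and end between 2.64 and 5.29, and Irf4 overlaps at all 4 time points on the scaled values.

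Pax5 (ENSMUSG00000014030, chr4:44524757-44710487, minus strand, mm10) is the commitment factor of the B lineage. Its scaled TPM was 16.5, 19.0 and 20.1 in the 3 libraries at 0h, 6.73, 6.55 and 6.64 at 1h, 2.59, 2.87 and 2.34 at 12h, and 4.51, 5.37 and 5.99 at 48h. No 2 time points overlapped, the lowest values stood at 12h and those at 48h lay between the 12h and the 1h values. The log2 fold change against 0h was -1.46 ± 0.14 (SE, n = 3 per time point) at 1h (adjusted p = 9.31e-05), -2.79 ± 0.14 at 12h (adjusted p = 1.83e-07) and -1.79 ± 0.14 at 48h (adjusted p = 1.5e-06). From 12h to 48h Pax5 rose by 0.99 ± 0.14 (adjusted p = 0.000478). In the deposited TPM the same step was 0.26 ± 0.18 (adjusted p = 0.287), with 2.76, 3.19 and 3.17 TPM at 12h and 2.83, 3.85 and 4.50 at 48h, so the return of Pax5 was called on the scaled values and not on the deposited ones.

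Ebf1 (ENSMUSG00000057098, chr11:44617317-45008091, plus strand), which with E2A specifies the lineage, had the smallest called fall at 1h. It stood at 17.9, 17.0 and 15.6 scaled TPM at 0h, 8.88, 10.5 and 8.79 at 1h, 2.78, 2.74 and 3.56 at 12h, and 3.33, 3.57 and 2.57 at 48h. The libraries of 12h and 48h overlapped and those of the earlier time points did not. The fall at 1h was 1.79-fold (log2 -0.84 ± 0.16, adjusted p = 0.00769), and in the deposited TPM it was -0.18 ± 0.23 (adjusted p = 0.585). Against 0h the log2 fold change was -2.44 ± 0.16 at 12h (adjusted p = 1.26e-06) and -2.39 ± 0.16 at 48h (adjusted p = 4.43e-07). From 12h to 48h it was 0.05 ± 0.16 (adjusted p = 0.872), and -0.67 ± 0.23 in the deposited TPM (adjusted p = 0.0385). The ratio of Pax5 to Ebf1 TPM within a library needs no scaling. It was 0.921, 1.12 and 1.29 at 0h, 0.758, 0.624 and 0.756 at 1h, 0.929, 1.05 and 0.658 at 12h, and 1.35, 1.5 and 2.33 at 48h, so the 48h libraries lay above all others.

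Tcf3 (ENSMUSG00000020167, chr10:80409514-80433647, minus strand), the gene of the E proteins E12 and E47, declined at every step. Its scaled TPM was 17.7, 19.0 and 22.5 at 0h, 8.04, 7.16 and 9.86 at 1h, 4.95, 4.15 and 4.30 at 12h, and 2.22, 2.26 and 3.45 at 48h. No 2 time points overlapped. The log2 fold change was -1.24 ± 0.19 at 1h (adjusted p = 0.00222, and -0.58 ± 0.21 with adjusted p = 0.0647 in the deposited TPM), -2.12 ± 0.19 at 12h (adjusted p = 1.36e-05) and -2.88 ± 0.19 at 48h (adjusted p = 3.99e-07). The step from 12h to 48h, -0.76 ± 0.19 (adjusted p = 0.0154), missed the threshold without 12h replicate 1, 48h replicate 1 or 48h replicate 2 (adjusted p = 0.0565, 0.0587 and 0.0563), and with the 6 libraries of that comparison alone (adjusted p = 0.0550).

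The other E protein genes did not follow Tcf3. Tcf4 (E2-2) had means of 9.52, 10.0, 8.11 and 18.0 scaled TPM along the 4 time points, and rose by 0.91 (log2) at 48h (adjusted p = 0.000453), which was 0.50 with an adjusted p of 0.0892 in the deposited TPM, where the 1h value was 0.72 (adjusted p = 0.0348). Tcf12 (HEB) had means from 11 to 12.9 and was not called at 1h, 12h or 48h (48h adjusted p = 0.676 scaled). In the deposited TPM its log2 fold change was 0.65 at 1h (adjusted p = 0.0185) and -0.51 at 48h (adjusted p = 0.0302). Within libraries, Tcf3 had 1.76 to 2.26 times the TPM of Tcf4 at 0h and 0.114 to 0.206 times at 48h. Of the 4 inhibitors of E proteins, 3 were tested: Id1 and Id2 rose and Id3 fell at 48h (log2 2.40, 3.10 and -2.61, adjusted p = 0.000159, 3.26e-07 and 0.0273). Id2 had means of 0.452, 0.415, 4.01 and 4.64 scaled TPM along the 4 time points. The ratio of Tcf3 to Id2 within a library lay between 35 and 50.8 at 0h, between 16.8 and 22.9 at 1h, between 1.04 and 1.22 at 12h and between 0.393 and 0.909 at 48h. Id1 was listed at 0 at 0h, and had means of 0.244, 4.67 and 0.475 scaled TPM at 1h, 12h and 48h.

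Ikzf1 (ENSMUSG00000018654, chr11:11685003-11772926, plus strand), the gene of the zinc finger protein Ikaros, was the member with the smallest called change at 12h and at 48h. Its scaled TPM was 32.9, 28.9 and 32.3 at 0h, 11.8, 10.4 and 11.1 at 1h, 19.5, 19.3 and 16.4 at 12h, and 13.0, 14.1 and 15.4 at 48h. On this scale the lowest values stood at 1h, and no 2 time points overlapped. Ikzf1 fell by 1.49 ± 0.12 (log2) at 1h (adjusted p = 2.83e-05) and was -0.77 ± 0.12 at 12h (adjusted p = 0.000654) and -1.14 ± 0.12 at 48h (adjusted p = 1.43e-05) against 0h. From 1h to 12h it rose by 0.72 ± 0.12 (adjusted p = 0.00148), as the single member that rose in that step. In the deposited TPM the 12h value against 0h was -0.43 (adjusted p = 0.0766) and the step from 1h to 12h 0.40 (adjusted p = 0.118), with 14.7 to 18.4 TPM at 1h and 20.8 to 22.2 at 12h. The step from 12h to 48h was -0.37 ± 0.12 (adjusted p = 0.0458), and it missed the threshold in 13 of 22 alternatives.

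The ratio of Ikzf1 to Tcf3 within a library was 1.44 to 1.86 at 0h, 1.12 to 1.47 at 1h, 3.81 to 4.64 at 12h and 4.46 to 6.25 at 48h, so Ikaros transcripts gained on E2A transcripts after 1h whatever the scaling. Ikzf3 (ENSMUSG00000018168, chr11:98464902-98546031, minus strand), the gene of Aiolos, was low from the start. It stood at 0.650, 0.576 and 1.14 scaled TPM at 0h, 0.250, 0.294 and 0.324 at 1h, 0.0188, 0 and 0.0222 at 12h, and 0, 0 and 0.0266 at 48h. The 0h and 1h libraries did not overlap, but the log2 fold change at 1h, -1.14 ± 0.33, had an adjusted p of 0.0509, and it passed the threshold in 4 of 21 alternatives. At 12h and 48h it was -2.92 ± 0.33 (adjusted p = 6.47e-05) and -2.99 ± 0.33 (adjusted p = 2.1e-05) on the log2(scaled TPM + 0.1) scale, which understates changes of genes this low. Ikzf5, another Ikaros family gene, was not called against 0h (48h log2 -0.36, adjusted p = 0.358).

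Foxo1 (ENSMUSG00000044167, chr3:52268336-52353221, plus strand), a forkhead factor held back by growth factor signaling, had the largest fall of the 10 at 1h. It stood at 4.03, 3.13 and 3.33 scaled TPM at 0h, 0.501, 0.536 and 0.430 at 1h, 0.666, 0.602 and 0.591 at 12h, and 1.37, 1.31 and 1.52 at 48h. The 1h mean was 7.15-fold below the 0h mean, and the 48h libraries lay above those of 1h and 12h and below those of 0h. The log2 fold change was -2.61 ± 0.18 at 1h (adjusted p = 8.73e-06), -2.31 ± 0.18 at 12h (adjusted p = 4e-06) and -1.26 ± 0.18 at 48h (adjusted p = 0.000156). From 12h to 48h it rose by 1.06 ± 0.18 (adjusted p = 0.00146), and by 0.38 ± 0.23 (adjusted p = 0.240) in the deposited TPM, with 0.67 to 0.80 TPM at 12h and 0.86 to 1.14 at 48h. Its relative Foxo3 moved the other way, from a mean of 3.03 scaled TPM at 0h to 6.17 at 1h (log2 1.01, adjusted p = 0.00225) and 8.34 at 48h (log2 1.43, adjusted p = 2.07e-05). Foxo6, chosen for mention after its values were seen, went from a mean of 0.482 to 0.142 at 48h (log2 -1.43, adjusted p = 0.0287). The ratio of Foxo1 to Foxo3 TPM within a library was 0.911 to 1.57 at 0h, 0.0664 to 0.0966 at 1h, 0.0749 to 0.0932 at 12h and 0.156 to 0.187 at 48h, so the 48h libraries lay above those of 12h on this ratio.

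Rag1, Rag2 and Il7r, 3 known targets of Foxo1, were chosen for mention after their values were seen. Rag1, a recombinase subunit, went from a mean of 1.81 scaled TPM at 0h to 0.0381 at 1h (log2 -3.79, adjusted p = 1.61e-05), and Rag2, its partner, from 2.13 to 0.0683 (log2 -3.74, adjusted p = 0.000283). Il7r, the receptor subunit for interleukin 7, had means of 8.06, 0.696, 0.00938 and 1.12 at 0h, 1h, 12h and 48h.

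Bach2 (ENSMUSG00000040270, chr4:32238804-32586108, plus strand), a repressor of myeloid and plasma cell genes, had the largest fitted log2 fold change of the 10 at 12h and at 48h, while by the ratio of means Ikzf3, whose change the pseudocount understates, fell further (57.9-fold and 89.0-fold). Its scaled TPM was 6.10, 4.06 and 4.86 at 0h, 2.02, 0.942 and 1.5 at 1h, 0.141, 0.0539 and 0.436 at 12h, and 0.239, 0.112 and 0.0266 at 48h. The 0h, 1h and 12h libraries did not overlap, and those of 12h and 48h did. The 1h value of -1.73 ± 0.49 had an adjusted p of 0.0468 and missed the threshold in 14 of 22 alternatives, among them the deposited TPM (-1.10, adjusted p = 0.135) and the fits without any 1 of the 0h or 1h libraries (adjusted p from 0.0631 to 0.157). The values at 12h, -4.22 ± 0.49 (adjusted p = 7.62e-05), and at 48h, -4.59 ± 0.49 (adjusted p = 1.52e-05), correspond to 23.8-fold and 39.8-fold lower means. The library kit is not stated to keep strand, so reads of the antisense gene Bach2os cannot be told apart from those of Bach2. Bach1, which shares its DNA site, rose from a mean of 1.64 scaled TPM at 0h to 3.71 at 12h (log2 1.12, adjusted p = 0.00249) and 6.61 at 48h (log2 1.93, adjusted p = 2.21e-05). Bach2 had 2.62 to 3.38 times the TPM of Bach1 at 0h, 0.583 to 1.20 times at 1h and 0.00455 to 0.0414 times at 48h within a library.

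**Figure D2:**
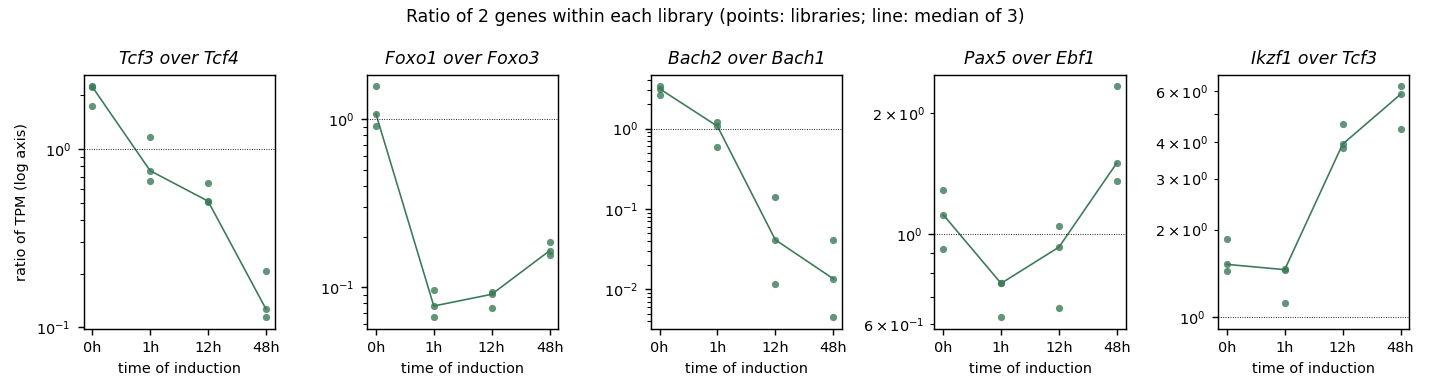
Ratio of the TPM of 2 genes within each library on log axes, with 1 point per library and lines through the medians of 3, so no scaling between libraries enters. Tcf3 over Tcf4 falls from 1.76 to 2.26 at 0h to 0.114 to 0.206 at 48h, Bach2 over Bach1 from 2.62 to 3.38 to 0.00455 to 0.0414, and Foxo1 over Foxo3 is lowest at 1h and 12h. Pax5 over Ebf1 and Ikzf1 over Tcf3 are highest at 48h by their medians, 1.5 and 5.85.

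Lef1 (ENSMUSG00000027985, chr3:131110471-131224356, plus strand), a nuclear partner of β-catenin, was among the 3 highest members at 0h. It stood at 27.4, 34.4 and 31.4 scaled TPM at 0h, 5.12, 6.81 and 8.64 at 1h, 3.27, 2.82 and 2.56 at 12h, and 3.94, 3.78 and 1.53 at 48h. The 48h libraries, of which replicate 3 was low, overlapped those of 12h, and the earlier time points did not overlap. The log2 fold change was -2.19 ± 0.32 at 1h (adjusted p = 0.00135), -3.39 ± 0.32 at 12h (adjusted p = 1.65e-05) and -3.40 ± 0.32 at 48h (adjusted p = 5.49e-06). The step from 1h to 12h, -1.20 ± 0.32 (adjusted p = 0.0209), missed the threshold without 1h replicate 2 or 3 or 12h replicate 2 or 3 (adjusted p from 0.0597 to 0.0818). Of the relatives of Lef1, Tcf7, also chosen after its values were seen, had means of 0.587, 0.745, 1.24 and 0.161 scaled TPM along the 4 time points, with a rise at 12h (log2 0.97, adjusted p = 0.0167) and a fall at 48h (log2 -1.41, adjusted p = 0.00102). Tcf7l2 had means of 3.88 at 0h and 5.68 at 48h and was not called (48h adjusted p = 0.0787), and the ratio of Lef1 to Tcf7l2 went from 7.90 to 8.19 at 0h to 0.298 to 0.666 at 48h.

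Pou2af1 (ENSMUSG00000032053, chr9:51213708-51240080, plus strand), the B cell coactivator OCA-B, fell at every step on both scales. It stood at 30.1, 32.5 and 30.7 scaled TPM at 0h, 10.9, 12.3 and 12.1 at 1h, 6.94, 6.99 and 6.74 at 12h, and 4.05, 3.68 and 2.95 at 48h. No 2 time points overlapped. The log2 fold change was -1.39 ± 0.13 at 1h (adjusted p = 7.09e-05), -2.16 ± 0.13 at 12h (adjusted p = 6.1e-07) and -3.10 ± 0.13 at 48h (adjusted p = 1.17e-08), and no call of Pou2af1 was lost in the 22 alternatives of each of the 5 comparisons. Its octamer-binding partners, named here as direct partners, took other courses. Pou2f2 (Oct-2) had means of 2.04, 0.161, 0.592 and 1.69 scaled TPM at 0h, 1h, 12h and 48h, and its log2 fold change was -3.05 at 1h (adjusted p = 5.1e-05) and -0.26 at 48h (adjusted p = 0.471). Pou2f1 (Oct-1) was not called at 1h, 12h or 48h (48h log2 -0.11, adjusted p = 0.775).

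Irf4 (ENSMUSG00000021356, chr13:30749226-30766976, plus strand) was the member without a called change in any of the 5 comparisons on either scale. It stood at 1.53, 0.956 and 1.62 scaled TPM at 0h, 1.42, 1.26 and 1.17 at 1h, 1.10, 1.22 and 1.40 at 12h, and 1.10, 1.18 and 1.85 at 48h. All 4 time points overlapped. Its log2 fold change was -0.06 ± 0.25 at 1h (adjusted p = 0.927), -0.11 ± 0.25 at 12h (adjusted p = 0.797) and 0.01 ± 0.25 at 48h, a value that changed sign between alternatives. A p above the threshold does not show that its level was the same at these time points. Irf8, the relative that shares the partner PU.1 and is named as such, fell by 1.89 (log2) at 1h (adjusted p = 0.000394) and was at 0.09 at 48h (adjusted p = 0.778), with means of 20.4, 5.52, 12.3 and 22.4 scaled TPM. The ratio of Irf8 to Irf4 within a library was 12.3 to 20.1 at 0h, 3.24 to 5.19 at 1h, 9.09 to 10.7 at 12h and 15.2 to 16.7 at 48h.

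**Figure D3:**
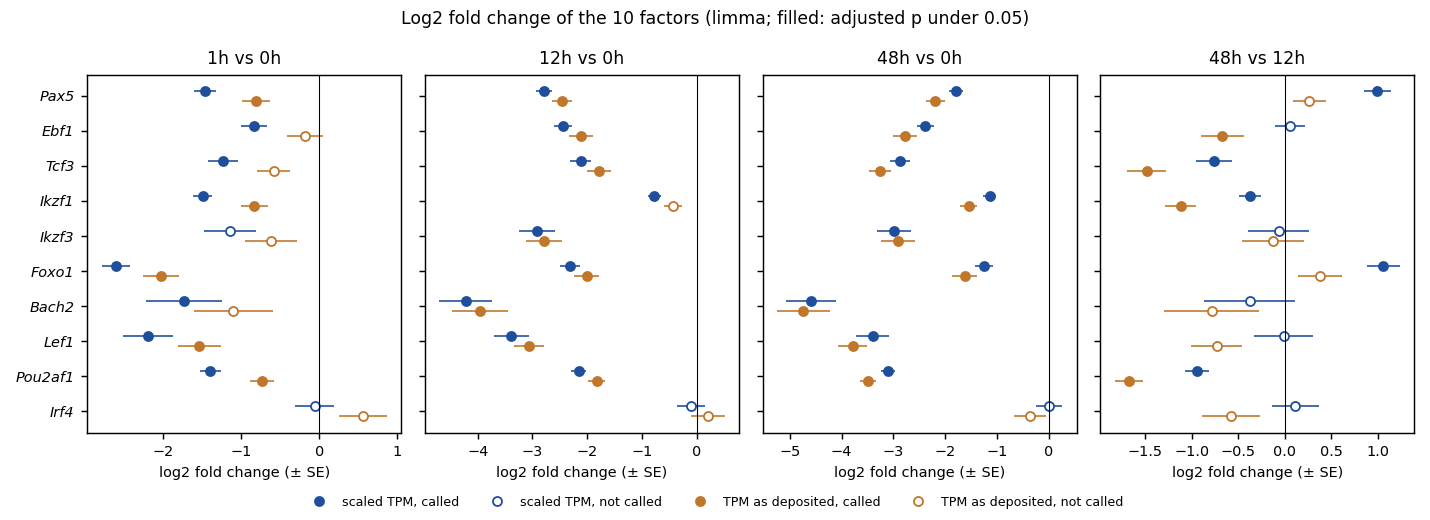
Log2 fold change with its SE for each factor in 4 comparisons, on scaled TPM (blue) and TPM as deposited (orange), with filled points for an adjusted p under 0.05. Against 0h, 9 of 10 factors lie left of 0 on both scales at 12h and at 48h, from -0.77 to -4.22 and from -1.14 to -4.59 on the scaled values. In the step from 12h to 48h Pax5 (0.99) and Foxo1 (1.06) lie right of 0.

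The order of the levels changed with time. At 0h Ikzf1, Lef1 and Pou2af1 (means of 31.4, 31.1 and 31.1 scaled TPM, overlapping) stood above Tcf3, Pax5 and Ebf1 (19.7, 18.5 and 16.8, neighbours overlapping), then Bach2 (5.01), Foxo1 (3.50), Irf4 (1.37) and Ikzf3 (0.790), where the last 2 overlapped. At 1h the 6 highest, from Pou2af1 (11.8) to Pax5 (6.64), overlapped with their neighbours. At 12h Ikzf1 stood alone at 18.4, above Pou2af1 (6.89) and Tcf3 (4.47), with Ebf1, Lef1 and Pax5 (3.03, 2.88 and 2.60) overlapping. At 48h the order ran from Ikzf1 (14.1) and Pax5 (5.29), which overlapped neither each other nor Pou2af1 (3.56), to Bach2 (0.126) and Ikzf3 (0.00887), which overlapped.

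Genes known as targets of these factors in B-lineage cells mostly fell with them. Of 25 such genes 23 were tested. Of these, 13 fell and 1 rose at 1h, 17 fell and 2 rose at 12h, and 16 fell and 3 rose at 48h. Over all genes tested, 4.92%, 14.5% and 22.0% were called lower at these time points, and 5.42%, 16.0% and 24.5% higher. The median log2 fold change of the targets was -2.35 at 48h, against 0.07 for all genes. Among those with the largest change at 48h were Vpreb3, Vpreb2 and Igll1, genes of the surrogate light chain and a related protein. Vpreb3 went from a mean of 83.5 scaled TPM at 0h to 0.750 at 48h (log2 -6.63, adjusted p = 1.73e-10), Igll1 from 55.1 to 1.58 (log2 -5.05, adjusted p = 1.69e-09) and Vpreb2 from 3.24 to 0, where the log2 value of -5.02 is bounded by the pseudocount. Cd79b, a Pre-B cell receptor subunit chosen for mention after its values were seen, had means of 37.0, 3.47, 11.1 and 17.2 at 0h, 1h, 12h and 48h, with its lowest level at 1h.

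The next counts stand beside the shares over all genes tested. Of those, 5.42%, 16.0% and 24.5% were called higher at 1h, 12h and 48h, and 4.92%, 14.5% and 22.0% lower. Of 19 partners and relatives of the factors 12 were tested. Of these, 1 rose and 2 fell at 1h, and 3 rose and 2 fell at 12h and at 48h (median log2 fold change -0.10 at 48h). Of 17 other lymphoid regulators 16 were tested, and 6 rose and 4 fell at 1h, 4 rose and 7 fell at 12h, and 5 rose and 6 fell at 48h (median -0.15 at 48h). The 4 with the largest change at 48h were Myb, Aff3, Arid5b and Erg. Myb, a factor of immature blood cells, had means of 18.6, 25.8, 4.03 and 0.581 scaled TPM at 0h, 1h, 12h and 48h, and was not called at 1h (log2 0.47, adjusted p = 0.134, and 1.13 with adjusted p = 0.00631 in the deposited TPM) but fell by 4.82 at 48h (adjusted p = 5.72e-09). Aff3 fell by 4.23 (adjusted p = 1.2e-06) and Erg, an ETS factor, by 3.74 (adjusted p = 2.19e-05) at 48h. Arid5b, a DNA-binding chromatin cofactor, rose by 1.82 at 1h (adjusted p = 0.000341) and 3.75 at 48h (adjusted p = 1.27e-07).

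The genes whose course was most like that of each factor were found by the root mean square difference, over the 12 libraries, of log2(scaled TPM + 0.1) minus its 0h mean, among the 9331 genes with a mean of at least 1 TPM. For Pax5 these were Pde2a and Slamf6 (0.32 and 0.34), for Ebf1 Prag1 and Cd37 (0.24 and 0.25), for Tcf3 Lrmp and Tarbp1 (0.25 and 0.26), and for Ikzf1 Fig4 (0.23). For Ikzf3 they were Cplx2 and Osgep (0.31 and 0.34), for Foxo1 0610040J01Rik and Jhy (0.41 and 0.43), for Bach2 Gfra2 and Ptprcap (0.56 and 0.58), and for Lef1 Bcl11a and Chst3 (0.38 and 0.54). For Pou2af1 they were Traf4 and Tarbp1 (0.29 and 0.29) and for Irf4 Pskh1 and Siah1a (0.15 and 0.22). Among the factors themselves Tcf3 and Pou2af1 were the closest pair (0.30), before Tcf3 and Ikzf3 (0.44) and Ebf1 and Tcf3 (0.48). The pseudocount of 0.1 bounds the change of a gene as low as Ikzf3, so its likeness to other genes depends on this scale. By the ratio of means at 48h, Ikzf3 fell 89.0-fold and Tcf3 7.48-fold. The mean of Cplx2 went from 8.38 scaled TPM at 0h to 1.05 at 48h.

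PCHi-C captures restriction fragments that hold promoters, called baits, and lists the fragments, called promoter interacting regions (PIRs), that they contact more often than a background model gives. A contact was assigned to a gene when its bait held one of the gene's transcription start sites. The 10 genes had 11 baits, 2 of them for Bach2. The 0h list gives a CHiCAGO score of at least 5, and the later lists give whole numbers of at least 2 whose unit is not stated, so only the presence of a contact was compared. Each list pools 2 replicates, so contacts have no replicate check and differences between lists were not tested. The 10 genes had 366, 340, 324 and 386 contacts in the lists of 0h, 1h, 12h and 48h, and no contact reached another chromosome. Of the 366 contacts at 0h, 62.8% were also listed at 1h (exact 95% binomial interval 57.7 to 67.8%, for counting error alone), 60.4% at 12h (55.2 to 65.4%) and 71.6% at 48h (66.7 to 76.2%). Over all baits 57.6%, 53.2% and 55.9% of the 0h interactions were listed again. Baits with at least 10 contacts at 0h kept a median of 60.9%, 55% and 58.1%. The members differed: at 1h the share ran from 0% for Ikzf3, 15.4% for Irf4 and 35.1% for Pax5 to 92.2% for Ikzf1 (47 of 51). When a PIR within 10 kb of the first counted as the same contact, the shares over the 10 members were 90.4%, 90.2% and 89.3%. Most of the 0h contacts missing from a later list thus had a listed neighbour within that distance. The share by this rule was not computed over all baits, so it cannot be read as particular to these genes.

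**Figure D4:**
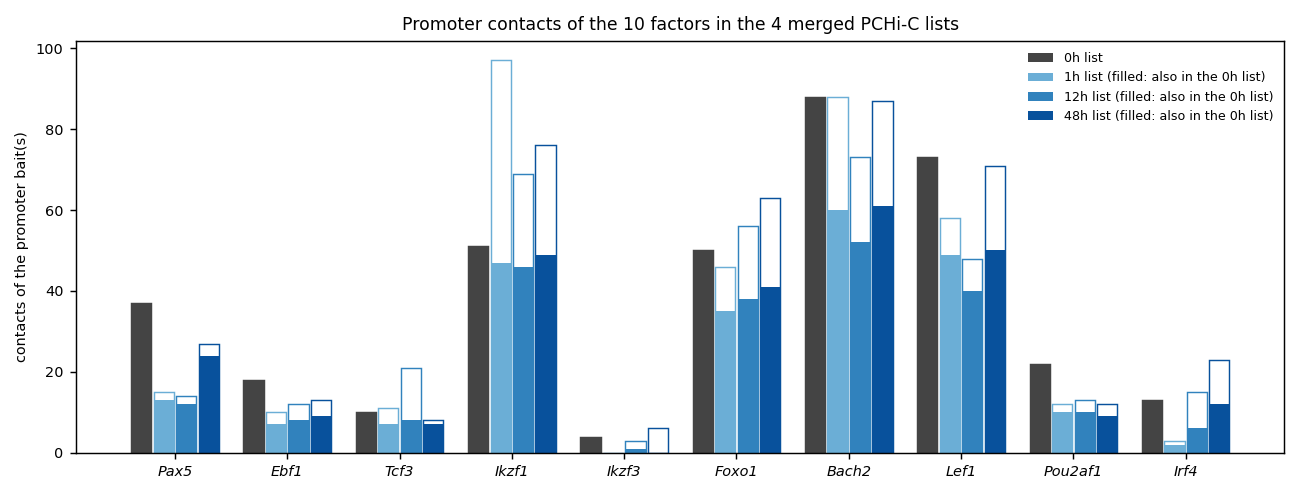
Number of contacts of the promoter bait or baits of each factor in the 4 merged PCHi-C lists, where the filled part of a bar counts the contacts that are also in the 0h list. Pax5 goes from 37 contacts at 0h to 15, 14 and 27, Ikzf1 from 51 to 97, 69 and 76, and Irf4 from 13 to 3, 15 and 23.

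At least 10 contacts at 0h were listed for 9 of the 10 genes. Of these, Pax5 and Irf4 had at most 0.5 times their 0h number at 1h and Pax5 alone at 12h, beside 10.7% and 16.6% of the 5420 baits with at least 10 contacts, and none of the 9 did at 48h (19.9% of baits). Ikzf1 at 1h, Tcf3 at 12h and Irf4 at 48h had at least 1.5 times their 0h number (9.35%, 7.31% and 12.2% of baits). The median bait had 0.915, 0.824 and 0.848 times its 0h number at 1h, 12h and 48h.

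The Pax5 bait (chr4:44708778-44717025, the start of the gene) had 37, 15, 14 and 27 contacts at 0h, 1h, 12h and 48h. Distance ranges used below were set after the positions were seen. All 37 at 0h lay upstream, and 34 of them overlapped Zcchc7, the neighbouring gene, 44.1 to 208 kb away. Of these 34, the 1h list held 12, the 12h list 11 and the 48h list 23. Of the 37, 11 were listed at 0h and 48h and at neither 1h nor 12h, and at Irf4 this held for 6 of 13. In all 4 lists there were 8 contacts, and 5 of them lay 180 to 198 kb upstream inside Zcchc7, between chr4:44891449-44894072 and chr4:44908905-44912733. The highest score of the 0h list at Pax5, 23.2, belonged to a PIR of that run at chr4:44908905-44912733. The farthest contact, to the Slc25a51 bait 694 kb upstream, was listed at 0h alone. The mean expression was 18.5, 6.64, 2.60 and 5.29 scaled TPM at the same 4 time points. With neighbours within 10 kb counted as shared, 32, 29 and 33 of the 37 contacts were kept, so the 3 later lists differed little on that count.

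The Ebf1 bait (chr11:44612436-44618517, shared with Gm37695) had 18, 10, 12 and 13 contacts, and all were downstream of the start. Most fell into 2 groups. The nearer lay around the 3′ end of Ebf1, 375 to 400 kb from the bait, with 6, 4, 8 and 6 contacts at 0h, 1h, 12h and 48h, and 4 of its PIRs, from chr11:45001456-45002685 to chr11:45005756-45010953, were in all 4 lists. The farther lay 911 to 933 kb away in fragments that overlap no protein-coding gene, with 8, 3, 4 and 5 contacts. It held the highest 0h score at Ebf1, 24.7 (chr11:45531673-45533543), a contact absent at 1h and listed at 12h and 48h. Between these groups 3 contacts, 412 to 452 kb away, were listed at 0h alone, and the farthest contact, 1266 kb away in Clint1, likewise.

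The Ikzf1 bait (chr11:11681896-11685640, shared with Gm11999) holds 1 of the 5 Ikzf1 start sites, at the 5′ end of the gene record. The RefSeq starts of Ikzf1 lie outside it, so contacts of those promoters were not captured by this bait. The bait had its most contacts at 1h, when the scaled Ikzf1 values were lowest. In the deposited TPM the lowest values stood at 48h (8.13 to 11.55, against 14.7 to 18.4 at 1h). The bait had 51, 97, 69 and 76 contacts at 0h, 1h, 12h and 48h, beside means of 31.4, 11.1, 18.4 and 14.1 scaled TPM. Of the 51 contacts at 0h, 47, 46 and 49 were listed at 1h, 12h and 48h, and 43 were in all 4 lists, all of them 6.13 to 220 kb upstream. The gain was downstream, with 1, 38, 10 and 16 contacts in the 4 lists. At 1h, 19 PIRs lay inside Ikzf1 itself, where the lists of 0h, 12h and 48h held 0, 2 and 5. Another 11 downstream PIRs overlapped Grb10, 253 to 290 kb away, with 1, 10, 2 and 8 in the 4 lists. At 1h alone the bait also contacted the baits of Fignl1 (128 kb) and Ddc (185 kb).

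**Figure D5:**
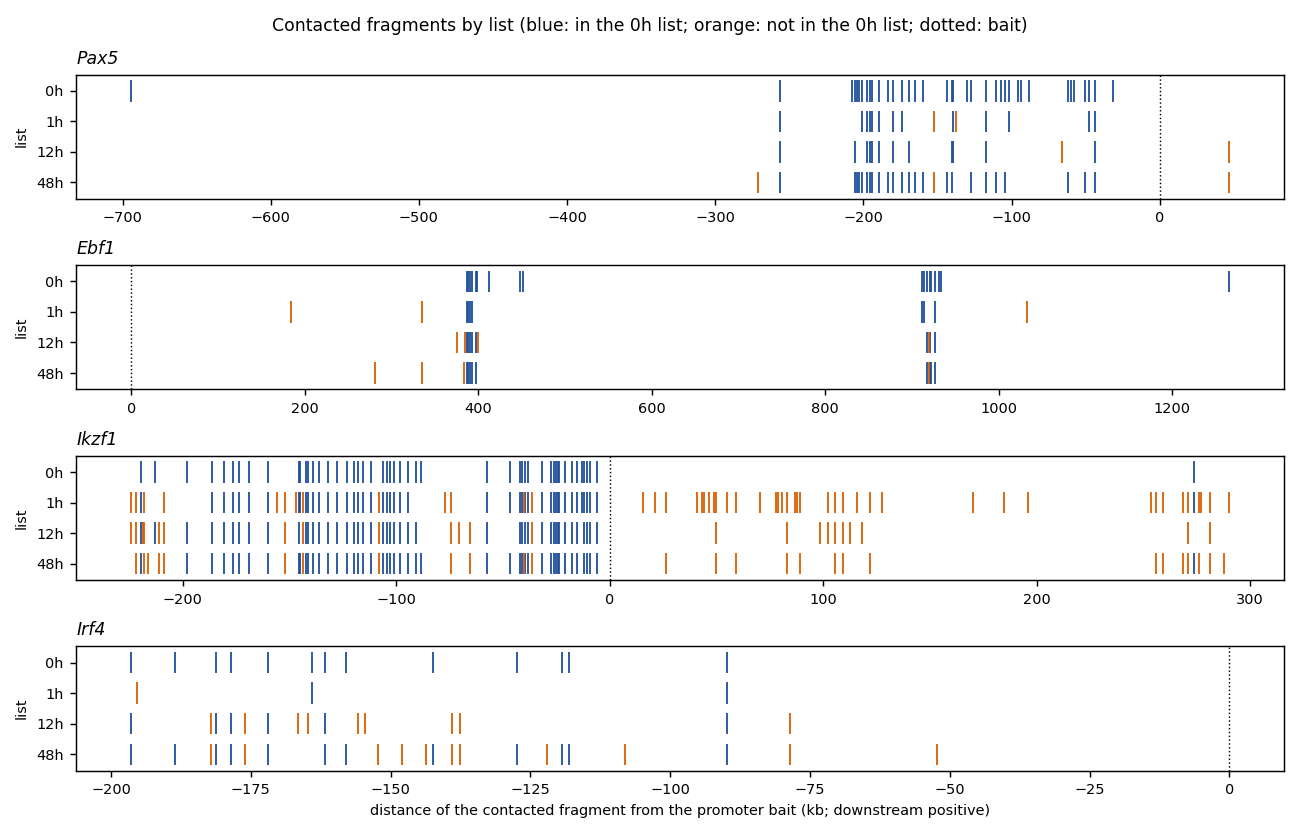
Position of each contacted fragment relative to the promoter bait in kb (downstream positive, bait dotted) for Pax5, Ebf1, Ikzf1 and Irf4, with 1 row per list. Blue ticks are contacts of the 0h list and orange ticks contacts outside it. Pax5 loses contacts 44.1 to 208 kb upstream at 1h and 12h and has 27 at 48h, Ikzf1 has 38 downstream contacts at 1h and 1 at 0h, and Irf4 has 3 contacts at 1h and 23 at 48h.

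The Irf4 bait (chr13:30745975-30756623) had 13, 3, 15 and 23 contacts, all upstream, beside an expression without a called change (means of 1.37, 1.28, 1.24 and 1.38 scaled TPM). Of the 13 contacts at 0h, the 1h list held 2 (15.4%, exact interval 1.92 to 45.4%), the 12h list 6 (46.2%, interval 19.2 to 74.9%) and the 48h list 12 (92.3%, interval 64.0 to 99.8%). The contact to the Dusp22 bait, 89.8 kb upstream, was the single one in all 4 lists. None of the 13 had a score of 10 or more at 0h (highest 8.96), so they lay near the threshold of 5, and with neighbours within 10 kb counted as shared 7, 10 and 13 of 13 were kept. Of the 23 contacts at 48h, 6 were listed at 48h alone, and the farthest of all lay 196 kb upstream.

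The Tcf3 bait (chr10:80423825-80444378) had 10, 11, 21 and 8 contacts. All 10 at 0h were upstream, and 6 were in all 4 lists, among them the fragments with the starts of Atp8b3 and Rexo1 (102 and 117 kb). At 12h, when Tcf3 was at 4.47 scaled TPM, 13 contacts outside the 0h list were present, including 2 baits of Mex3d 46.0 and 53.6 kb downstream. The Ikzf3 bait (chr11:98544791-98549186) had 4, 0, 3 and 6 contacts, of which 0 of 4 were kept at 1h and at 48h (exact interval 0 to 60.2%) and 1 at 12h. At 48h, with Ikzf3 at or near 0, the 6 contacts included the baits of Cdk12 (280 kb), Neurod2 (219 kb) and Lrrc3c (49.4 kb).

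The Pou2af1 bait (chr9:51208890-51220413, shared with Gm47828) had 22, 12, 13 and 12 contacts, with losses at 1h both upstream and downstream. Of 15 contacts within 55 kb upstream at 0h, the later lists held 7, 5 and 3, and none was added. Of the 6 contacts 57.2 to 82.7 kb downstream, which overlap Colca2 and 1810046K07Rik, 2, 5 and 6 were kept. With neighbours within 10 kb counted as shared, 21, 21 and 18 of the 22 were kept. The Lef1 bait (chr3:131103630-131114076, shared with Gm43352) had 73, 58, 48 and 71 contacts, and its near upstream part thinned: 15 contacts within 100 kb upstream at 0h became 8, 2 and 1, while those over 100 kb upstream numbered 53, 44, 38 and 56. In all 4 lists Lef1 contacted the Ostc and Rpl34 baits (400 and 379 kb upstream). Downstream contacts of Lef1 numbered 5, 6, 8 and 14.

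The Foxo1 bait (chr3:52266637-52272771, shared with Gm20402) had 50, 46, 56 and 63 contacts, all downstream, and 41 of the 50 were listed at 48h. In all 4 lists there were 30, 123 to 716 kb away, through time points at which mean expression was 3.50, 0.489, 0.620 and 1.40 scaled TPM. All 19 contacts with a 0h score of at least 10 were listed at 1h and at 48h, and 18 at 12h. The farthest contact, to the bait of Nhlrc3 and Proser1, 1192 kb away, had a score of 12.8 at 0h and was listed at 1h and 48h. The 2 Bach2 baits, at the 5′ end of the gene (chr4:32238596-32240591) and inside it (chr4:32571354-32580820, shared with Bach2os), had 88, 88, 73 and 87 contacts in all. At 48h 61 of the 88 were kept, and the transcript mean was 39.8-fold lower. The 5′ bait had 33, 39, 29 and 27 of these contacts, and 20 of its 33 were kept at 48h. The inner bait, which holds 1 of the 7 Bach2 start sites, had the other 55, 49, 44 and 60, with 41 of 55 kept. The 2 baits contacted each other, 336 kb apart, in all 4 lists (score 21.6 at 0h). The inner bait was in contact with the Ankrd6 bait, 374 kb downstream, in all 4 lists, and reached the Map3k7 bait, 616 kb upstream, at 0h, 1h and 48h. The farthest Bach2 contact, 749 kb upstream of the inner bait, was listed at 48h alone.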

How the data were processed

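RNA-seq of 12 libraries (3 replicates at each of 4 time points) and merged PCHi-C lists of the same 4 time points were used. The authors trimmed reads with Trim Galore 0.6.2, aligned them to mm10 with HISAT2 2.1.0, merged technical replicates and deposited TPM computed with RSEM. For PCHi-C the authors processed reads with HiCUP and called interactions with CHiCAGO on 2 merged replicates. The deposited 0h list holds CHiCAGO scores of at least 5, and the other deposited lists hold whole numbers of at least 2, read as counts of read pairs, an assignment the sources used here do not state. TPM hold no read depth. The authors refer to their supplement for sequencing depth, which was not used here, so the precision of low TPM was not assessed.

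TPM were divided by median-of-ratios size factors and tested as log2(scaled TPM + 0.1) with limma 3.58.1 in R 4.3.3 (lmFit on all 12 libraries, contrasts, eBayes with a trend). Genes with a mean deposited TPM of at least 0.1 were tested (16415), p-values were two-sided and adjusted by Benjamini-Hochberg over all of them, and genes were called at 0.05. SE is that of the fit. The scaling and each filter were varied, as given in the closing section. Contacts were joined to GENCODE M21 transcription start sites with Python 3.11.15 and pandas 2.3.3, and intervals are Clopper-Pearson intervals from SciPy 1.17.1. Promoters are from RefSeq. The code was tested on simulated data.

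The factors and gene lists were chosen with earlier results of these data known. Beside the factors, named genes are up to 4 of each list with the largest called change at 48h and a mean deposited TPM of at least 1, direct partners of a factor, and those said to be chosen after their values were seen. Some genes that these rules would also name are not reported here.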

Additional observations from a re-analysis of the deposited data

How the results depend on the processing

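Over the 10 members and 5 comparisons, each with up to 22 alternatives, 1021 values kept their direction and their side of the threshold, 42 kept the direction and missed the threshold, 4 newly passed it and 27 changed sign. The members called lower at 12h and 48h against 0h stayed within 1.5 times the count in every alternative run. With TPM as deposited the members called lower at 1h numbered 5, and those called higher 0 from 1h to 12h and 0 from 12h to 48h. Members called lower from 12h to 48h numbered 1 with the 6 libraries of that comparison alone, and from 1 to 3 when single libraries were left out, with 1 without 12h replicate 1, 48h replicate 1 or 48h replicate 2. The cause of these changes was not tested.

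All 27 sign changes were of values not called in the main analysis. For Irf4 the deposited TPM gave 0.56 at 1h, 0.21 at 12h, -0.37 at 48h and -0.58 from 12h to 48h, and TPM rescaled without the 20 most abundant genes gave 0.10, 0.0063, -0.064 and -0.070. The 6 libraries alone gave Irf4 -0.020 at 48h. Ebf1 from 12h to 48h was -0.67 in the deposited TPM (adjusted p = 0.0385) and -0.13 in the rescaled TPM. In that step Ikzf3 was 0.029 with quantile normalization and Lef1 0.013 with a pseudocount of 1. With 1 library left out, Bach2 ran from -0.78 to 0.12 from 12h to 48h. Ebf1 ran from -0.037 to 0.19 from 12h to 48h. Irf4 lay between -0.29 and 0.068 at 1h, between -0.34 and 0.018 at 12h, between -0.23 and 0.16 at 48h, between -0.13 and 0.036 from 1h to 12h, and between -0.10 and 0.25 from 12h to 48h. Lef1 ran from -0.23 to 0.42 from 12h to 48h. With the 8 libraries of replicates 1 and 2 alone, chosen after seeing the data and not in the counts above, the members' calls were those of all 12 libraries except Bach2 at 1h (adjusted p = 0.0942). There, Irf4 was 0.13 at 1h, -0.080 at 48h and -0.020 from 12h to 48h, and in that last step Bach2 was 0.48 and Lef1 0.33.

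For the 10 members' contacts, counting PIRs within 10 kb as shared gave 90.4%, 90.2% and 89.3% kept at 1h, 12h and 48h. A 0h score of at least 10 left 134 contacts, of which 87.3%, 86.6% and 92.5% were kept. Shares by these rules were not computed over all baits. Pairing by replicate number was not met for every number: over 18 pairs of same-numbered libraries the correlation of deviations ran from -0.01 to 0.26, and 7 passed 0.1, of which 5 were among the 6 pairs of replicate 3, 2 among those of replicate 1 and 0 among those of replicate 2. A replicate block changed 1 call among the members, Ikzf1 from 12h to 48h (-0.37, adjusted p = 0.0526). TPM without read depth, 1 merged contact list per time point limit these results, and an induced line without C/EBPαER was not analysed here.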
